A study of Mus musculus with 42 samples.

Results

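Gluconeogenic enzymes were followed as a set of 7 genes in 3 tissues (liver, quadriceps muscle, visceral fat) from mice with both or 1 Akt1 allele. The set held Pck1, Pck2, G6pc, Fbp1, Fbp2, Pcx and Tat, and its members were the non-control probes that carry one of these names on the array. Of the 7 genes, 6 were found, with 1 probe each, among 27745 gene names on the array. Pck1 was not analysed here. RNA of 42 samples had been measured on 1-colour Agilent whole mouse genome arrays, with 14 arrays per tissue. Each tissue had 3 wild-type (Wt) and 3 Akt1+/- arrays at 8 weeks, and 4 of each genotype at 35 weeks by the labels (the study's methods give a higher age). All mice were female and on a C57BL/6 background, to which the Akt1 mutation had been backcrossed. The wild-type mice were littermates that carried both Akt1 alleles, and the Akt1+/- mice lacked 1 allele in every cell, so that no tissue was targeted on its own. No group received a drug or a diet that the sources name, and they do not give the feeding state or the hour of sampling. The labels list the arrays of a group as separate samples without naming the animals, so that p values measure the spread between these samples, which may be in part technical.

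Gluconeogenesis makes glucose from lactate, glycerol and amino acids, chiefly in the liver and the kidney. Its specific enzymes bypass the irreversible steps of glycolysis. Pyruvate carboxylase (Pcx) turns pyruvate into oxaloacetate in mitochondria, and phosphoenolpyruvate carboxykinase turns oxaloacetate into phosphoenolpyruvate, in the cytosol (Pck1) or in mitochondria (Pck2). Fructose-1,6-bisphosphatase removes a phosphate from fructose 1,6-bisphosphate, with a liver and kidney form (Fbp1) and a form known from muscle (Fbp2). The catalytic subunit of glucose-6-phosphatase (G6pc) releases free glucose, and tyrosine aminotransferase (Tat) starts the breakdown of tyrosine, which feeds carbon into the pathway. Insulin acting through Akt is known to hold back transcription of several of these genes in liver by keeping forkhead (FoxO) factors out of the nucleus, while glucagon and glucocorticoids raise it.

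The array reads each transcript with a 60-base probe. On the array's mm8 coordinates the probes lay at chr13:62874438-62874497 (Fbp1, minus strand), chr11:101193723-101193782 (G6pc, plus strand), chr14:54502699-54502758 (Pck2, plus strand), chr19:4621637-4621696 (Pcx, plus strand) and chr8:112888436-112888495 (Tat, plus strand). The Fbp2 probe mapped to chr13:62859115-62863630 on the minus strand, a span of 4516 bases, and so crossed at least 1 intron. No probe of the set was saturated on any array.

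Promoter sequence is shown for G6pc and Fbp2, the members that rose with age in liver, and for Fbp1, the liver form of the enzyme that Fbp2 also encodes. The 250 bases before the start site come from RefSeq on GRCm38.p6, on the gene's own strand. The 3 windows are chr11:101367466-101367715 (G6pc, plus), chr13:62858401-62858650 (Fbp2, minus) and chr13:62888283-62888532 (Fbp1, minus). Capitals mark a forkhead site (TGTTTAC or TGTTTTG) or a cyclic AMP response half-site (TGACG), searched on both strands.
G6pc promoter: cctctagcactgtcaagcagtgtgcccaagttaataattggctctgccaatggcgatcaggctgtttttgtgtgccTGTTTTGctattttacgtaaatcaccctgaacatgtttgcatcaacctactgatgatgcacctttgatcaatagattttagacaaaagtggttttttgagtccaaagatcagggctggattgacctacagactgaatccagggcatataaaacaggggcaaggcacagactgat
Fbp2 promoter: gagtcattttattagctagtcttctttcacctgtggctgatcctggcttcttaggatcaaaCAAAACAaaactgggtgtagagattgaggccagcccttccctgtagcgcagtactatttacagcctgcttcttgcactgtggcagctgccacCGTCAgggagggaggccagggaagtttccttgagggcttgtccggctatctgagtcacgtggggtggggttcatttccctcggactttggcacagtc
Fbp1 promoter: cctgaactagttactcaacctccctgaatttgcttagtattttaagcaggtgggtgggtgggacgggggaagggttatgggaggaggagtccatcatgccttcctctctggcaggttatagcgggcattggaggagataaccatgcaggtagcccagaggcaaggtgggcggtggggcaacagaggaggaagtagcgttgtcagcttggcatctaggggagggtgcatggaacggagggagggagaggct
The G6pc window held TGTTTTG 174 bases before the start. The Fbp2 window held the reverse complement of that site, CAAAACA, 189 bases before the start and the reverse complement of the half-site, CGTCA, 97 bases before it. The Fbp1 window held neither. The Pck2 window held TGTTTTG 159 bases before its start, and the windows of Tat and Pcx (which has 2 starts in RefSeq) held neither. Of 32851 RefSeq promoter windows of the same length, 8.51% held a forkhead site and 17.77% a half-site. The glucocorticoid half-site TGTTCT, present in 16.08% of these windows, was found in none of the members' windows.

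Levels below are the log2 of the background-subtracted intensity relative to the 75th percentile of the same array, so that 0 is the 75th percentile and 1 unit is a doubling. The 75th percentile lay between 274.19 and 795.12 intensity units, and between 56.53 and 68.64% of probes were well above background. A gene entered the limma fit of a tissue if some group there had 3 or more arrays with the probe well above background, and a change was called at a Benjamini-Hochberg adjusted p below 0.05 over all genes tested. A probe says nothing about the level of another gene's probe. These are bulk tissues, in which fewer cells of a type and less RNA per cell cannot be told apart. Akt1 itself was at 63.0% of wild type in Akt1+/- liver (log2 difference −0.67 ± 0.08 SE, adjusted p = 0.00251), 67.1% in muscle (−0.58 ± 0.11, adjusted p = 0.0747) and 68.2% in fat (−0.55 ± 0.07, adjusted p = 0.00649). The ranges of the genotypes did not overlap in liver and fat and did in muscle. In muscle the Akt1 difference was called with a replicate block (adjusted p = 0.0228), with slides as a random block (adjusted p = 0.0399) and in 1 fit over all 42 arrays (adjusted p = 0.000511).

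The tissue labels were checked against markers. The summed level of 5 hepatocyte markers was 10.82 to 11.32 in liver, and that of 6 skeletal muscle fibre markers 11.70 to 12.16 in muscle. The sum of 6 white adipocyte markers was 10.21 to 10.84 in fat. Each sum was above its range in the other tissues, with the smallest gap for the white adipocyte sum (7.23 to 8.33 in muscle). Some sums given below rest on few measured markers, with 2 of 4 for kidney proximal tubule, 3 of 6 for exocrine pancreas and 2 of 3 for red blood cells. One muscle array stood apart. Replicate 3 of the Akt1+/- muscles at 8 weeks had a hepatocyte sum of 5.48, against −3.31 to 2.09 on the other 13 muscle arrays, and its albumin (Alb) level was 5.18 against −5.49 to 1.76. The same array held the highest muscle level of Fbp1 (1.24 against −5.64 to −2.02), G6pc (−1.59 against −4.56 to −2.88), Tat (−0.46 against −2.49 to −0.93), Pck2 (1.07 against 0.10 to 0.77) and Fbp2 (3.70 against 1.67 to 3.62). Its fibre sum was 11.70 against 11.74 to 12.16. Several muscle results are therefore also given without it.

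The 6 enzymes fell into 4 tissue patterns. G6pc, Fbp1 and Tat were far higher in liver than in muscle and fat, Fbp2 was far higher in muscle, and Pck2 was highest in fat, while Pcx was high in liver and fat and lower in muscle. All 6 were called in liver against muscle and in liver against fat, and 4 of 6 in muscle against fat. Tissue differences were common on these arrays, since 88.0% of the genes tested were called in liver against muscle, 86.7% in liver against fat and 88.8% in muscle against fat.

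The 14 liver arrays had G6pc between 6.19 and 7.41, the muscle arrays between −4.56 and −1.59 and the fat arrays between −4.40 and −3.01. The liver mean was higher than the muscle mean by 10.45 ± 0.19 (SE, limma, adjusted p = 1.04e-31) and higher than the fat mean by 10.60 ± 0.19 (adjusted p = 1.27e-31). Muscle and fat overlapped (0.15 ± 0.19, adjusted p = 0.452). Fbp1 ran from 8.53 to 8.91 in liver, from −5.64 to 1.24 in muscle and from −5.42 to −1.52 in fat. Its liver excess was 12.51 ± 0.45 over muscle (adjusted p = 1.90e-23) and 12.38 ± 0.45 over fat (adjusted p = 3.77e-23), and muscle and fat overlapped again. The Fbp1 probe was well above background on 11 of 14 muscle arrays, so that its low muscle level is uncertain. Without the muscle array with the high hepatocyte sum, the liver excess over muscle was 13.01 for Fbp1 and 10.68 for G6pc. The range of Tat was 7.39 to 8.50 in liver, −2.49 to −0.46 in muscle and −2.34 to −0.39 in fat, with a liver excess of 9.70 ± 0.18 over muscle (9.82 without that array) and 9.28 ± 0.18 over fat. Its lower level in muscle than in fat was small (−0.42 ± 0.18, adjusted p = 0.0334), and the call was lost with normexp and quantile normalization (−0.17, adjusted p = 0.241), with median scaling (−0.24, adjusted p = 0.211) and with slides as a random block (adjusted p = 0.0592). Leaving out 1 of 8 arrays in turn ended that call. These were replicate 3 of the Wt and replicates 1 and 2 of the Akt1+/- muscles at 8 weeks, replicate 2 of the Akt1+/- muscles at 35 weeks, replicates 3 (Wt) and 2 (Akt1+/-) of the fat arrays at 8 weeks, and replicate 4 of both fat groups at 35 weeks, with −0.39 to −0.32 without them.

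Fbp2 showed the reverse order. Its 14 muscle arrays lay between 1.67 and 3.70, all above the liver arrays (−5.60 to −3.19) and the fat arrays (−8.06 to −4.38). The probe was well above background on all 14 muscle arrays, 11 liver arrays and 4 fat arrays, so that the dim side is only a bound in some groups. Fbp2 was at least 247-fold higher in wild-type muscle than in wild-type liver at 8 weeks. It was at least 628-fold higher in Akt1+/- muscle than in Akt1+/- fat at 8 weeks, and at least 392-fold higher in wild-type muscle than in wild-type fat at 35 weeks. These bounds set the mean of the bright group against the lowest signal that was well above background on each array of the dim group, or the probe's own value where that was higher.

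Pck2, the mitochondrial carboxykinase, was highest in fat (2.31 to 3.27), lower in muscle (0.10 to 1.07) and lowest in liver (−0.89 to 0.36). Fat was above liver by 3.14 ± 0.08 (liver against fat −3.14, adjusted p = 3.62e-28) and above muscle (muscle against fat −2.25 ± 0.08, adjusted p = 6.29e-24), and its arrays overlapped with neither tissue. Muscle was above liver by 0.90 ± 0.08 on the same scale (liver against muscle −0.90, adjusted p = 6.44e-13), with some arrays overlapping. Pcx was at 6.21 to 6.82 in liver, 5.67 to 6.60 in fat and 3.37 to 4.60 in muscle. Muscle was the low tissue by 2.46 ± 0.10 against liver (adjusted p = 4.13e-22) and by 1.96 ± 0.10 against fat (muscle against fat −1.96, adjusted p = 3.64e-19), with no overlap. The liver excess over fat was 0.50 ± 0.10 (adjusted p = 1.88e-05), and it turned to −0.50 (adjusted p = 5.23e-05) with normexp background correction and quantile normalization, so that the order of liver and fat depended on the processing.

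**Figure D1:**
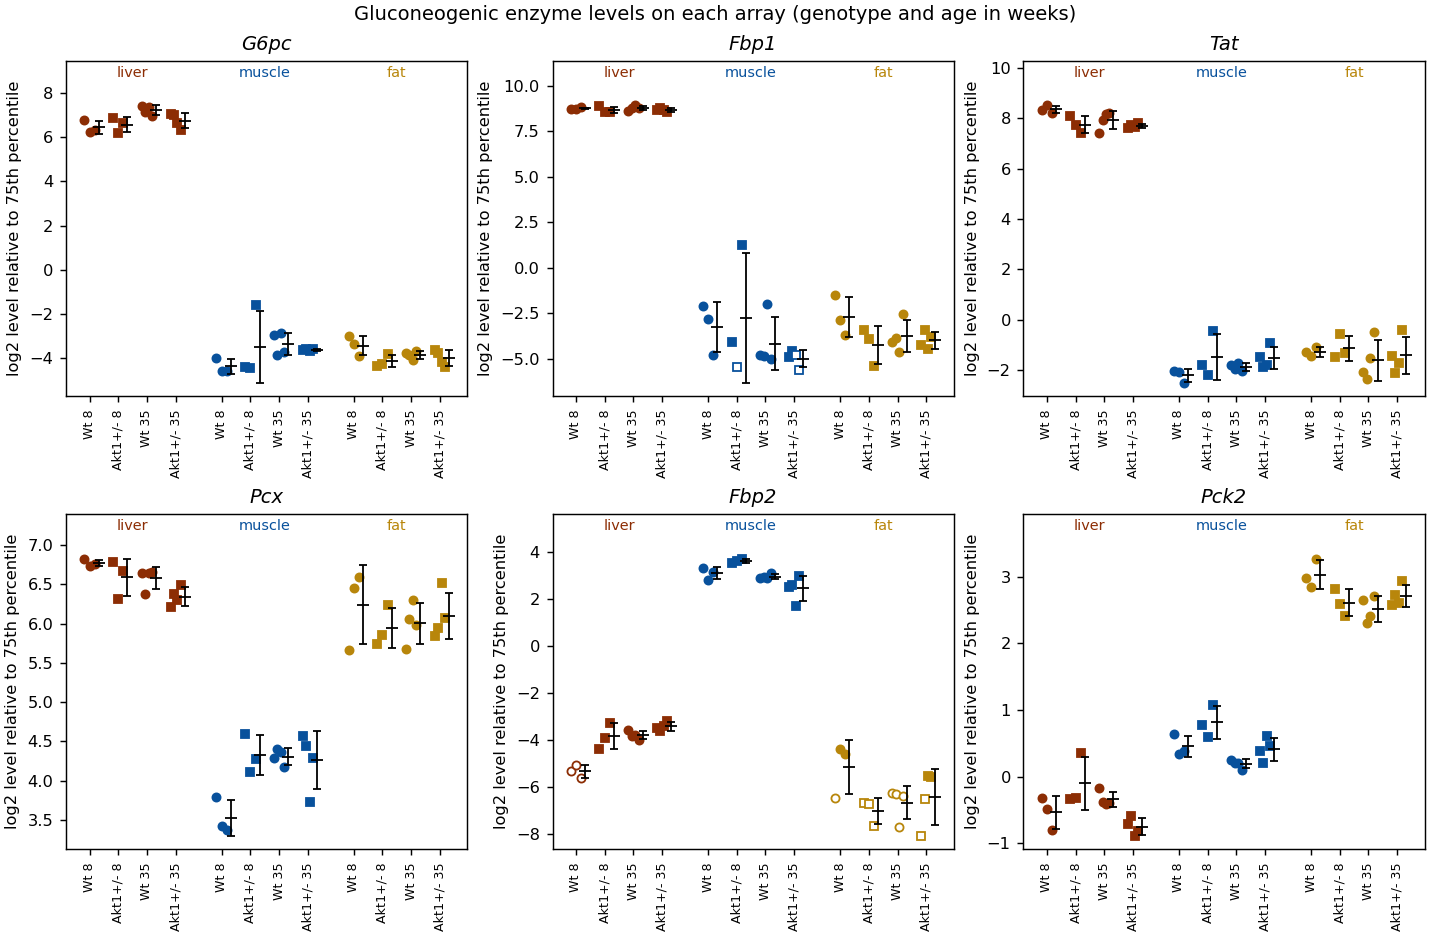
Log2 level of each of the 6 enzymes relative to the array's 75th percentile, for every array by tissue, genotype and age in weeks; circles are wild type, squares Akt1+/-, open symbols probes not well above background, and bars the mean and SD of a group. G6pc, Fbp1 and Tat sit at 6.19 or higher in liver and at 1.24 or lower in muscle and fat, whereas Fbp2 lies at 1.67 or higher only in muscle.

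The genotype comparison in liver asks whether the enzymes differ when 1 Akt1 allele is missing. Of 6 members 1 was called, Fbp2, which was higher in Akt1+/- livers, where 6.26% of the 17561 genes tested were called. None of the classical liver enzymes G6pc, Fbp1, Pcx and Tat was called. The median genotype difference of the 6 members was −0.14, against 0.02 over all genes tested.

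Fbp2 in liver was dim. The wild-type livers at 8 weeks read −5.30, −5.05 and −5.60, and none of these arrays was well above background. The Akt1+/- livers at 8 weeks read −4.37, −3.89 and −3.27, the wild-type livers at 35 weeks −3.57, −3.83, −3.78 and −3.98, and the Akt1+/- livers at 35 weeks −3.50, −3.60, −3.41 and −3.19. The wild-type livers at 8 weeks were below every other liver array, the genotypes did not overlap at 8 weeks, and at 35 weeks they overlapped narrowly. Averaged over both ages the genotype difference was 0.92 ± 0.16 (SE, limma, adjusted p = 0.0128). At 8 weeks Fbp2 was at least 2.03-fold higher in Akt1+/- than in wild-type livers by the bound described above, which holds for this scaling only. The measured group means were −3.84 ± 0.55 and −5.32 ± 0.28 (SD, n = 3 each). At 35 weeks the difference was 0.37, from −3.42 ± 0.18 against −3.79 ± 0.17 (SD, n = 4 each, two-sided exact permutation p = 0.0571, smallest possible 0.0286). Each Akt1+/- liver of that age was above the wild-type liver of the same number. Same-numbered livers there correlated at 0.228 to 0.509 and held the same position on their slides, and the part of position was not tested. The genotype call held without each of the 14 liver arrays in turn (0.78 to 1.05). It was lost with normexp and quantile normalization (0.17, adjusted p = 0.0913) and in 1 fit over all 42 arrays, and Fbp2 was no longer tested when a probe had to be above background on all arrays.

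Other measures moved with the dim Fbp2 group. The wild-type livers at 8 weeks had the lowest 75th percentiles of the liver arrays (274.19 to 299.74, against 317.28 to 431.02 on the other 11). Their hepatocyte marker sum was 11.17 to 11.32, above the 10.92 to 10.98 of the Akt1+/- livers at 8 weeks. Their fibre marker sum was −3.55 to −2.93, within the range of the other liver arrays (−3.58 to 0.98). The correlation of Fbp2 with the fibre sum over the 14 livers did not pass (Pearson r = 0.154, permutation p = 0.62, Spearman rho = 0.200, permutation p = 0.49, r = 0.323 without the 2 farthest arrays, 0.476 at 8 and −0.004 at 35 weeks). The part of intensity, of fibres and of the hepatocyte sum in the Fbp2 difference was not tested.

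Tat in Akt1+/- livers at 8 weeks was at 8.07, 7.73 and 7.39 against 8.34, 8.50 and 8.22, without overlap. At 35 weeks the values were 7.62, 7.71, 7.63 and 7.80 against 7.42, 7.92, 8.17 and 8.20, with replicate 1 of the wild-type livers below all others. The averaged difference of −0.43 ± 0.13 did not pass the threshold (adjusted p = 0.0734). The hepatocyte sum was also lower in Akt1+/- livers at 8 weeks (10.92 to 10.98 against 11.17 to 11.32) and overlapped at 35 weeks (10.82 to 10.97 against 10.88 to 11.24), and its part in the Tat difference was not tested. The averaged Tat difference passed without replicate 1 of the Akt1+/- livers at 8 weeks (adjusted p = 0.0437) or replicate 1 of the wild-type livers at 35 weeks (adjusted p = 0.0234). Pcx was at 6.78, 6.32 and 6.67 against 6.82, 6.73 and 6.76 at 8 weeks, and at 6.21, 6.38, 6.30 and 6.49 against 6.65, 6.37, 6.65 and 6.66 at 35 weeks. The groups overlapped at both ages, and the averaged difference was −0.21 ± 0.09 (adjusted p = 0.145). Both differences passed when arrays were scaled to their median, Tat at −0.56 (adjusted p = 0.0204) and Pcx at −0.34 (adjusted p = 0.0209). That scaling moved the median genotype difference of all liver genes from 0.02 to −0.11. With normexp and quantile normalization neither passed, and Pcx was at 0.14 (adjusted p = 0.419) and Tat at −0.25 (adjusted p = 0.194).

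Fbp1 had the narrowest range of the 6 members in liver. It ran from 8.54 to 8.86 in the Akt1+/- and from 8.72 to 8.79 in the wild-type livers at 8 weeks, and from 8.53 to 8.75 and 8.61 to 8.91 at 35 weeks, with an averaged difference of −0.10 ± 0.07 (adjusted p = 0.400). G6pc differed by −0.17 ± 0.15 (adjusted p = 0.483) over both ages and Pck2 by 0.01 ± 0.12 (adjusted p = 0.967). The G6pc difference was 0.13 at 8 weeks (two-sided exact permutation p = 0.8) and −0.48 at 35 weeks (p = 0.0857 by the same test). At 35 weeks each Akt1+/- liver had less G6pc than the wild-type liver of the same number, which held the same position on its slide.

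With age, 2 of 6 members were called in liver, Fbp2 and G6pc, both higher at 35 weeks, against 35.1% of all genes tested. At 8 weeks the wild-type livers had G6pc at 6.76, 6.22 and 6.34, and the Akt1+/- livers at 6.86, 6.19 and 6.66. At 35 weeks the wild-type livers read 7.41, 7.14, 7.39 and 6.97, and the Akt1+/- livers 7.06, 6.99, 6.62 and 6.33. The 4 older wild-type livers were above every wild-type liver at 8 weeks, and the Akt1+/- livers of both ages overlapped. The age difference over both genotypes was 0.49 ± 0.15 (limma, adjusted p = 0.0247), a 1.40-fold change. It did not pass without replicate 2 or 3 of the wild-type (adjusted p = 0.0654 and 0.0534) or replicate 2 of the Akt1+/- livers at 8 weeks (adjusted p = 0.0573), nor when arrays were scaled to their median (0.29, adjusted p = 0.105), which moved the median age difference of all genes from 0.02 to −0.18, nor in 1 fit over all 42 arrays (adjusted p = 0.165).

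Fbp2 rose with age by 0.97 ± 0.16 (adjusted p = 0.000599), measured in part against the wild-type livers at 8 weeks, of which none was above background, so that the size is uncertain. With normexp and quantile normalization it was 0.18 (adjusted p = 0.0270). In wild-type livers it was at least 2.11-fold higher at 35 than at 8 weeks. In Akt1+/- livers its means were −3.84 at 8 and −3.42 at 35 weeks. Tat (−0.23 ± 0.13, adjusted p = 0.201), Pcx (−0.22 ± 0.09, adjusted p = 0.0693), Pck2 (−0.23 ± 0.12, adjusted p = 0.159) and Fbp1 (0.01 ± 0.07, adjusted p = 0.912) were not called. Pcx was called with a replicate block (−0.25, adjusted p = 0.0492). Scaled to the median, Tat, Pcx and Pck2 were called as lower at 35 weeks (−0.43, −0.41 and −0.43, adjusted p = 0.0238, 0.00207 and 0.0109). No scan day held a tissue at both ages, so that age and scan day cannot be told apart. The white adipocyte sum also separated the ages of the 14 livers, at 2.73 to 3.07 at 8 and 1.98 to 2.70 at 35 weeks, and its part in these differences was not tested. In the wild-type livers the kidney proximal tubule sum was also lower at 35 weeks (−3.22 to −2.86 against −2.75 to −2.31), which was not tested either.

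The interaction, the genotype difference at 35 weeks minus that at 8 weeks, was called for no member in liver, against 0.564% of all genes. Fbp2 was at −1.11 ± 0.31 (adjusted p = 0.135), a size that rests on the 8-week wild-type livers below background, Pck2 at −0.84 ± 0.24 (adjusted p = 0.141) and G6pc at −0.60 ± 0.30 (adjusted p = 0.395). With normexp and quantile normalization they were at −0.31, −0.63 and −0.70. Pck2 was called in 1 fit over all 42 arrays (adjusted p = 0.0298). Pck2 lay on opposite sides at the 2 ages. It read −0.33, −0.33 and 0.36 in Akt1+/- against −0.31, −0.48 and −0.80 in wild-type livers at 8 weeks, with overlap. At 35 weeks it read −0.70, −0.59, −0.89 and −0.82 against −0.17, −0.38, −0.41 and −0.40, with every Akt1+/- liver lower. In the same livers the sums of kidney proximal tubule markers (−2.69 to −2.33 against −3.22 to −2.86) and of exocrine pancreas markers (−0.75 to −0.57 against −1.47 to −0.89) were low and higher in Akt1+/-, and their part was not tested. The difference at 35 weeks was −0.41 (two-sided exact permutation p = 0.0286, the smallest that 4 against 4 can give, and 0.343 adjusted over the 36 tests of 6 members in 3 tissues at both ages).

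At 8 weeks 2 of 6 members did not overlap between genotypes in liver (Fbp2 higher and Tat lower in Akt1+/-), as did 25.2% of all liver genes, and at 35 weeks 1 of 6 (Pck2, lower) against 12.6%. A comparison of 3 against 3 cannot give an exact p below 0.1. In liver the genotypes lay on different slides at both ages, and slide cannot be told apart from genotype other than by treating slides as a random block, where Fbp2 kept its genotype call (0.92, adjusted p = 0.0367).

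**Figure D2:**
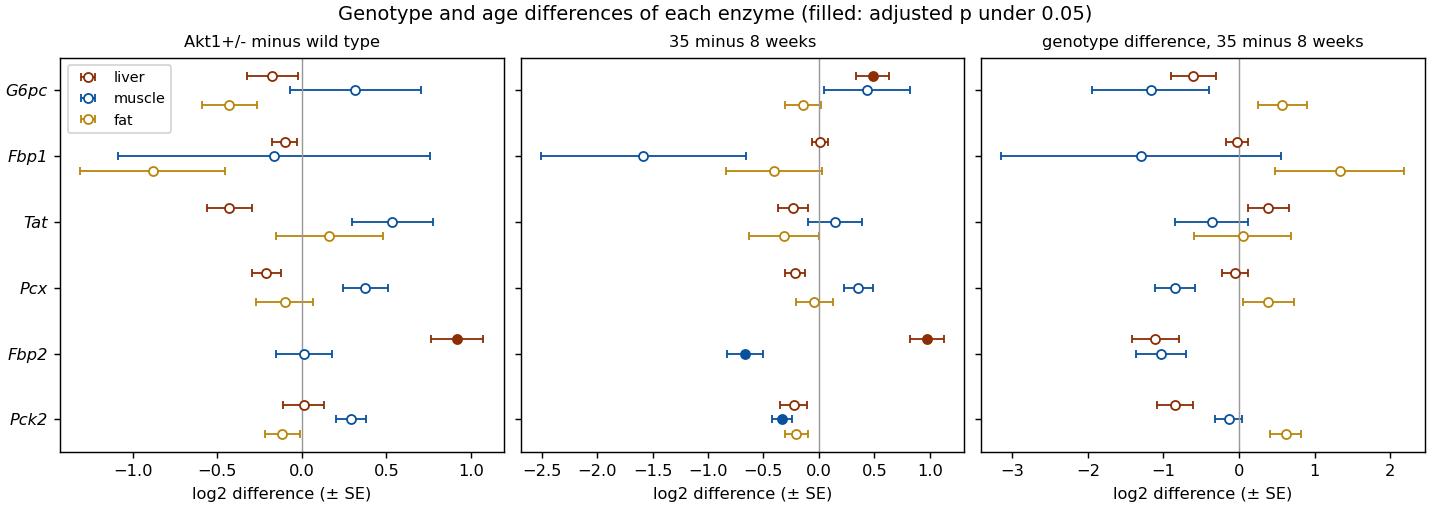
Log2 differences with SE from limma for each enzyme by tissue, with Akt1+/- minus wild type on the left, 35 minus 8 weeks in the middle and the change of the genotype difference with age on the right; filled symbols have an adjusted p below 0.05. Fbp2 is the one enzyme called for genotype, at 0.92 in liver, and Fbp2 in fat was too dim to be tested.

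In muscle no member was called for genotype, and neither was any other of the 17139 genes (0% called with limma), although 3170 genes had an unadjusted p below 0.05 and the methods' two-way test called 1 after adjustment. At the methods' own threshold, an unadjusted p below 0.01, that test called 958 genes and 1 of 6 members, Pck2. The adjusted count depended on the form of the fit, with 73 genes with slides as a random block, 248 with a replicate block and 304 in 1 fit over all 42 arrays, and no member among them. Pck2 was nearest, at 0.29 ± 0.09 (adjusted p = 0.156), followed by Pcx at 0.38 ± 0.13 (adjusted p = 0.186) and Tat at 0.54 ± 0.24 (adjusted p = 0.265). The interaction called 0% of genes too (1440 with an unadjusted p below 0.05). All 6 members had a negative interaction, with a median of −0.94 against 0.03 over all genes. Without the muscle array with the high hepatocyte sum, those of Fbp1 and Tat were positive (0.71 and 0.16), that of Pck2 was −0.01, and that of G6pc shrank from −1.17 to −0.23. Those of Fbp2 and Pcx were −0.99 and −0.87 without it, against −1.04 and −0.85 with it. The genotype difference of Tat was 0.28 without it and that of Pck2 0.22. At 8 weeks alone the genotype difference of G6pc moved from 0.90 to −0.04 without it. That of Fbp1 moved from 0.49 to −1.52, in part from readings not well above background.

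Pcx in muscle read 3.79, 3.43 and 3.37 in wild-type mice, against 4.60, 4.11 and 4.28 in Akt1+/- mice at 8 weeks, with every Akt1+/- array higher, and overlapped at 35 weeks (4.28, 4.40, 4.37 and 4.17 against 4.57, 4.45, 3.73 and 4.29). The difference was 0.80 at 8 weeks (two-sided exact permutation p = 0.1, the smallest possible) and −0.05 at 35 weeks. Within the slide that held 3 wild-type and 1 Akt1+/- muscle at 8 weeks, Pcx was 1.07 higher on the Akt1+/- array. White adipocyte markers, which like Pcx are high in fat, had sums of 7.57 to 8.30 in the Akt1+/- and 7.23 to 7.49 in the wild-type muscles at 8 weeks. Leukocyte markers differed in the same way (0.94 to 1.34 against −0.14 to 0.88), and red blood cell markers in the opposite way (5.08 to 5.28 against 5.59 to 6.12). The correlation of Pcx with the adipocyte sum did not pass over all 14 arrays (r = 0.568, permutation p = 0.035, adjusted over 10 relations 0.0877, and rho = 0.512, permutation p = 0.065, adjusted 0.217). Without the 2 farthest arrays r was 0.769. It was 0.883 at 8 weeks (6 arrays), where both measures separated the genotypes, and −0.239 at 35 weeks (8 arrays). The ages were not compared by a test. The part of these cells in the Pcx difference was not tested.

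Fbp2, in the tissue where it is bright, read 3.31, 2.81 and 3.13 in wild-type muscles, against 3.52, 3.62 and 3.70 in Akt1+/- muscles at 8 weeks. At 35 weeks it read 2.87, 2.92, 2.87 and 3.08 in wild-type muscles, against 2.50, 2.58, 1.67 and 2.98 in Akt1+/- muscles. The Akt1+/- arrays were thus all higher at 8 weeks and mostly lower at 35 weeks, by 0.53 and −0.50 (two-sided exact permutation p = 0.1, the smallest possible, and 0.114), and the averaged genotype difference was 0.01 ± 0.16. At 35 weeks each Akt1+/- muscle was below the wild-type muscle of the same number. Same-numbered muscle arrays of that age correlated at 0.259 to 0.526 and held the same position on their slides. The labels pair no samples, and the part of position was not tested. Without replicate 3 of the Akt1+/- muscles at 35 weeks (1.67) the difference at that age was −0.25. That array also had the highest brown adipocyte sum of the muscles (9.12, against 8.37 to 8.65 on the other 13 muscle arrays), the highest red blood cell sum at 35 weeks (5.75) and the lowest share of probes above background (57.16%). The brown adipocyte sum was above its fat range (0.86 to 4.44) on every muscle array. In muscle it is therefore no sure measure of brown adipocytes. The fibre sum at 35 weeks was lower in Akt1+/- (11.95 to 12.11) than in wild-type muscles (12.12 to 12.16). The exocrine pancreas sum was low and higher in Akt1+/- muscles at that age (−1.31 to −1.09 against −1.85 to −1.35). The adipocyte, leukocyte and red blood cell sums given beside Pcx separated the genotypes at 8 weeks for Fbp2 too, and the part of these sums was not tested. At 35 weeks each genotype had a slide of its own, and the 2 cannot be told apart there. At 8 weeks 2 of 6 members, Fbp2 and Pcx, did not overlap between genotypes in muscle, against 22.4% of all genes. At 35 weeks none did, against 5.54%.

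With age, 2 of 6 members fell in muscle, against 31.3% of all genes called. Marker sums moved with age in the wild-type muscles, with the fibre sum at 11.85 to 11.91 at 8 weeks against 12.12 to 12.16 at 35 weeks, the white adipocyte sum at 7.23 to 7.49 against 7.68 to 8.02, and the red blood cell sum at 5.59 to 6.12 against 4.08 to 4.73. Over both genotypes these sums overlapped between ages, and their part in the age differences was not tested. Fbp2 fell by 0.66 on the log2 scale (SE 0.16, adjusted p = 0.00947), a 1.58-fold change. Pck2 read 0.64, 0.33 and 0.39 in wild-type muscles, against 0.77, 0.59 and 1.07 in Akt1+/- muscles at 8 weeks. At 35 weeks it read 0.25, 0.21, 0.21 and 0.10 in wild-type muscles, against 0.38, 0.20, 0.61 and 0.45 in Akt1+/- muscles. The wild-type ages did not overlap, and the Akt1+/- ages did. Pck2 fell by 0.33 over both genotypes (SE 0.09, adjusted p = 0.0148). Both calls held without each of the 14 muscle arrays, and that of Fbp2 was lost in 1 fit over all 42 arrays (adjusted p = 0.115). Without the array with the high hepatocyte sum, G6pc was also called, higher at 35 weeks (0.91 ± 0.17, adjusted p = 0.00347, against 0.44 ± 0.39 with it). G6pc lay at −4.56 to −2.88 on those 13 arrays, against 6.19 or higher in liver. Pcx was higher at 35 weeks by 0.36 ± 0.13 without passing (adjusted p = 0.0581), and passed without replicate 1 of the Wt or of the Akt1+/- muscles at 8 weeks or replicate 3 of the Akt1+/- muscles at 35 weeks (0.42 to 0.44). It also passed with a replicate block (0.37, adjusted p = 0.0452) and with slides as a random block (0.35, adjusted p = 0.0347).

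The age differences of 2 members differed between liver and muscle, against 21.4% of the 15719 genes tested. Fbp1 was called too without replicate 2 of the Akt1+/- muscles at 8 weeks (2.27, limma, adjusted p = 0.0468, against 1.60 and 0.202 with it). For Fbp2 the age difference was 0.97 in liver and −0.66 in muscle, and these differed by 1.64 ± 0.45 (limma, adjusted p = 0.00891). The liver part rests on the 8-week wild-type arrays below background, and with normexp and quantile normalization the difference was 0.90 (adjusted p = 4.40e-05). For Pcx it was −0.22 in liver and 0.36 in muscle, and these differed by −0.57 ± 0.19 (adjusted p = 0.0341). The Pcx call was lost with normexp and quantile normalization (−0.27), with slides as a random block (adjusted p = 0.0641) and without each of 10 single arrays (−0.56 to −0.52). These were replicate 1 of the wild-type and replicates 1 and 3 of the Akt1+/- livers at 8 weeks, replicate 2 of the wild-type livers at 35 weeks, replicates 2 and 3 of the wild-type and of the Akt1+/- muscles at 8 weeks, and replicates 1 and 2 of the Akt1+/- muscles at 35 weeks.

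The genotype differences of liver and muscle differed for no member (1.08% of all genes). Tat was at −0.43 in liver and 0.54 in muscle (difference −0.97 ± 0.37, adjusted p = 0.161), Fbp2 differed by 0.91 ± 0.45 (adjusted p = 0.294), and Pcx was at −0.21 and 0.38 (−0.59 ± 0.19, adjusted p = 0.111). The muscle value of Tat depended on the array with the high hepatocyte sum. At 8 weeks the Tat difference in muscle was 0.72 with that array and 0.20 without it. No member was called for the difference of effects between liver and fat (4.70% of genes for genotype and 16.7% for age) or between muscle and fat (0.697% and 17.6%), with Fbp2 not tested there. Without the muscle array with the high hepatocyte sum, the age difference of G6pc was called between muscle and fat (1.05, adjusted p = 0.00355, against 0.58 with it). That of Pcx was called without replicate 1 of the wild-type fat at 8 weeks (0.54, adjusted p = 0.0338).

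In muscle and fat, the dim liver-type enzymes were set beside the markers of other cells. Fbp1 in muscle followed the hepatocyte sum over 14 arrays (r = 0.973, permutation p = 1e-05, the smallest that 100000 permutations can give, 0.0001 adjusted over 10 relations; rho = 0.833, adjusted p = 0.0039). Without the 2 farthest arrays r was 0.931, and within ages it was 0.999 (6 arrays at 8 weeks) and 0.947 (8 arrays at 35 weeks). G6pc (r = 0.486, rho = −0.055) and Tat (r = 0.371, rho = 0.020) in muscle did not (adjusted permutation p for r 0.160 and 0.256, for rho 0.951 each), and without the 2 farthest arrays their r was −0.545 and −0.436. At 8 weeks, where 1 of 6 arrays is the one that stood apart, r was 0.892 for G6pc and 0.875 for Tat, and at 35 weeks 0.526 and −0.254. In fat, Fbp2 followed the muscle fibre sum (r = 0.746, adjusted permutation p = 0.0112, rho = 0.793, adjusted p = 0.006, r = 0.756 without the 2 farthest arrays, 0.753 at 8 and 0.870 at 35 weeks). The 4 fat arrays on which Fbp2 was above background were the 4 with the highest fibre sums. On the rest of the 14 fat arrays Fbp2 was not well above background, so that these r, rho and p values are uncertain. G6pc followed the hepatocyte sum in fat less closely (r = 0.628, adjusted p = 0.0581, rho = 0.455, adjusted p = 0.262), with r = 0.206 without the 2 farthest arrays, 0.839 at 8 and 0.154 at 35 weeks. Fbp1 (r = 0.425) and Tat (r = 0.125) in fat, and Pck2 against the adipocyte sum in muscle (r = 0.351, with 0.964 at 8 and 0.489 at 35 weeks), did not pass either.

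**Figure D3:**
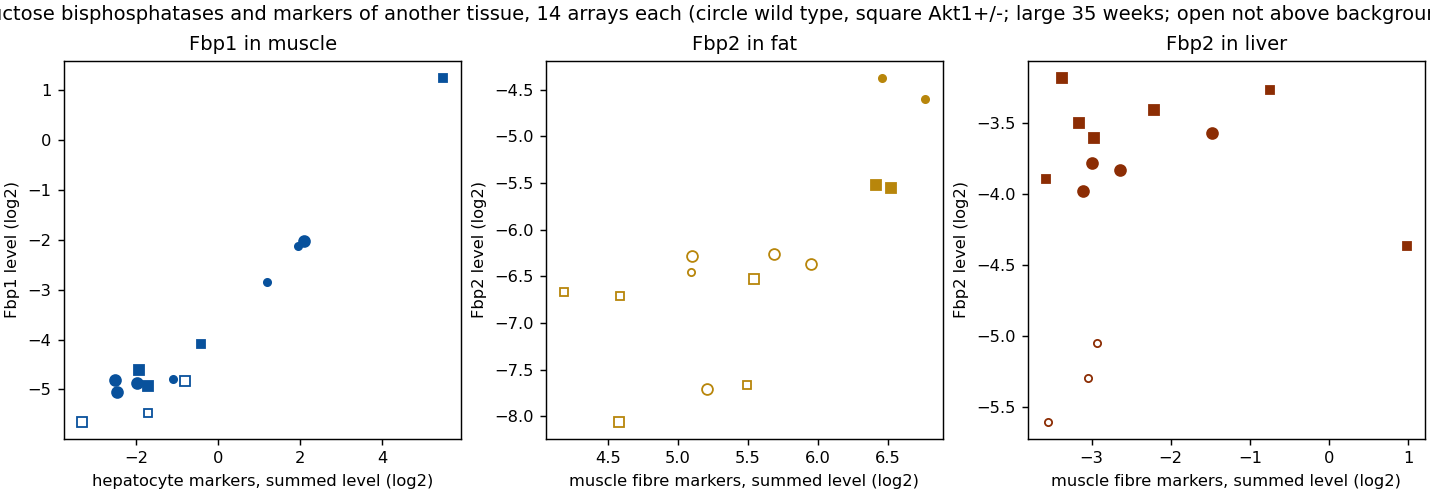
Level of Fbp1 in muscle, Fbp2 in fat and Fbp2 in liver against the summed level of hepatocyte or muscle fibre markers on the same array, both log2 relative to the 75th percentile; circles are wild type, squares Akt1+/-, large symbols 35 weeks and open symbols probes not well above background. Fbp1 in muscle rises with the hepatocyte sum (r = 0.973), with replicate 3 of the Akt1+/- muscles at 8 weeks at 5.48 and 1.24, and Fbp2 in liver shows no such order (r = 0.154).

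In fat, none of the 5 members tested was called for genotype (0.822% of 18366 genes), age (19.3%) or their interaction (1.64%). With a replicate block Tat was called for age (−0.67, adjusted p = 0.0486, against −0.31 without it). G6pc was between −3.90 and −3.01 in wild-type and between −4.34 and −3.83 in Akt1+/- fat at 8 weeks, with an averaged difference of −0.43 ± 0.16 (adjusted p = 0.190). Fbp1 differed by −0.88 ± 0.43 (adjusted p = 0.281), Tat by 0.16 ± 0.32, Pck2 by −0.12 ± 0.10 and Pcx by −0.10 ± 0.17. Pcx, which is bright in fat, ran from 5.67 to 6.60 and overlapped between genotypes at both ages.

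Pck2, at its highest in fat, read 2.98, 2.84 and 3.27 in wild-type fat, against 2.81, 2.59 and 2.41 in Akt1+/- fat at 8 weeks, with every Akt1+/- array lower. At 35 weeks it read 2.65, 2.31, 2.40 and 2.70 against 2.57, 2.72, 2.60 and 2.94, with overlap. The interaction was 0.62 ± 0.21 (adjusted p = 0.131), and the difference at 8 weeks −0.43 (two-sided exact permutation p = 0.1, the smallest possible). On the slide with 3 Akt1+/- and 1 wild-type fat at 8 weeks it was −0.67. Leukocyte markers were higher in Akt1+/- than in wild-type fat at 8 weeks (4.36 to 4.57 against 3.72 to 4.03) and red blood cell markers lower (6.62 to 6.91 against 6.95 to 8.03); their part was not tested.

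At 8 weeks 1 of the 5 members tested, Pck2, did not overlap between genotypes in fat, against 27.1% of all genes. Fbp2 was not tested in fat. Its wild-type arrays read −6.45, −4.38 and −4.60 and the Akt1+/- arrays −6.66, −6.71 and −7.67, and only 2 wild-type arrays were above background, so that no fold is given. The fibre marker sums of these groups were 5.09 to 6.76 and 4.19 to 5.49. At 35 weeks none of the 5 was without overlap, against 9.87%.

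The rest of the pathway was read from lists of enzymes, carriers and regulators. For genotype in liver, 3 of 18 enzymes that feed lactate, glycerol or amino acids into the pathway were called, all lower in Akt1+/- mice, where 6.26% of all genes were called. The hepatocyte sum was lower in the same Akt1+/- livers at 8 weeks, as given beside Tat, and its part in these differences was not tested. The list's median was −0.12 against 0.02 over all genes. At 8 weeks the wild-type livers had Sds, serine dehydratase, at 6.15, 6.04 and 6.21, and the Akt1+/- livers at 5.42, 4.97 and 4.97. At 35 weeks the wild-type livers read 5.99, 5.75, 5.59 and 6.00, and the Akt1+/- livers 5.67, 5.69, 5.17 and 5.33. The genotypes were apart at 8 weeks and overlapped at 35 weeks, and the averaged difference was −0.69 ± 0.11 (adjusted p = 0.0118).

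Ass1, argininosuccinate synthase of the urea cycle, differed by −0.47 ± 0.10 (adjusted p = 0.0250). Its wild-type arrays ran from 8.22 to 8.48 and its Akt1+/- arrays from 7.48 to 8.17, with no overlap over both ages. Mdh1, cytosolic malate dehydrogenase, differed by −0.27 ± 0.07 (adjusted p = 0.0488). With slides as a random block, which cannot separate slide from genotype in liver, Sds stayed called (adjusted p = 0.0315), while Ass1 (0.0597) and Mdh1 (0.0973) did not. Sds lost its call in the 42-array fit (adjusted p = 0.417), 1 of the 11 other settings tried with all arrays kept. Ass1 lost it in 4 of 11, among them normexp and quantile normalization (−0.30, adjusted p = 0.0807), and Mdh1 in 7 of 11 (−0.09 with that normalization). Sds kept its call without each of the 14 livers (−0.76 to −0.64). Ass1 lost it without replicate 2 of the wild-type livers at 8 or at 35 weeks, and Mdh1 in 12 of 14 such fits.

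Of 11 enzymes of the shared reversible steps 1 was called, Eno3, an enolase, at −0.30 ± 0.08 (adjusted p = 0.0419, and 0.0817 with slides as a random block, lost in 11 of 14 fits without 1 array). None of 11 carriers, 14 opposing glycolytic enzymes, 9 pyruvate dehydrogenase genes or 31 regulators was called for genotype in liver, and no list had a member called for the interaction.

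With age in liver, 19 of the 100 list genes tested were called, the members included, against 35.1% of all genes. Slc2a2, the liver glucose transporter, was higher (0.47 ± 0.14, adjusted p = 0.0196) and 2 of 11 carriers were lower. These were Aqp9, a glycerol channel (−0.36 ± 0.08, but −0.20 with normexp and quantile normalization and −0.05 over all its probes, neither called), and Mpc1, of the mitochondrial pyruvate carrier (−0.24 ± 0.08, lost in 11 of 14 fits without 1 array and in 6 of 11 other settings). Aqp9 was not called in the 42-array fit either. The Slc2a2 call was lost when arrays were scaled to their median (0.28), when all probes of a gene were averaged (0.21), with a replicate block and in the 42-array fit. Of 14 opposing glycolytic enzymes 3 were lower, among them Pfkl, the liver phosphofructokinase (−0.55 ± 0.06, adjusted p = 3.34e-05), and Pfkfb1 (−0.47 ± 0.16, lost in 8 of 14 fits without 1 array), and 1 was higher, Hk1 (0.32 ± 0.08, not called with median scaling at 0.12). Pfkl kept its call in all 11 other settings, and Pfkfb1 lost it in 3. Of the enolases, Eno1 rose by 0.29 (lost in 10 of 14 such fits and 7 of 11 settings) and Eno3 fell by 0.24 (lost in 4 and 3). Gpd1, which links glycerol to the pathway, was higher (0.41 ± 0.08), and was not called with median scaling (0.21) or in the 42-array fit. Pdk2, an inhibitor kinase of pyruvate dehydrogenase, was lower (−0.37 ± 0.08).

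Of 31 regulators, 5 were lower and 1 higher at 35 weeks in liver, against the same 35.1% of all genes. Foxo4, a forkhead factor, was higher (1.38 ± 0.22, adjusted p = 0.000524, but 0.30 with normexp and quantile normalization), with 3 of 6 arrays above background at 8 weeks. Cry1, a clock repressor, was lower (−1.62 ± 0.35, adjusted p = 0.00372, but −0.46 with that normalization), with 5 of 8 arrays above background at 35 weeks. Nr3c1, the glucocorticoid receptor, was lower (−0.60 ± 0.08, adjusted p = 0.000235), and was not called when its probes were averaged (−0.15).

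**Figure D4:**
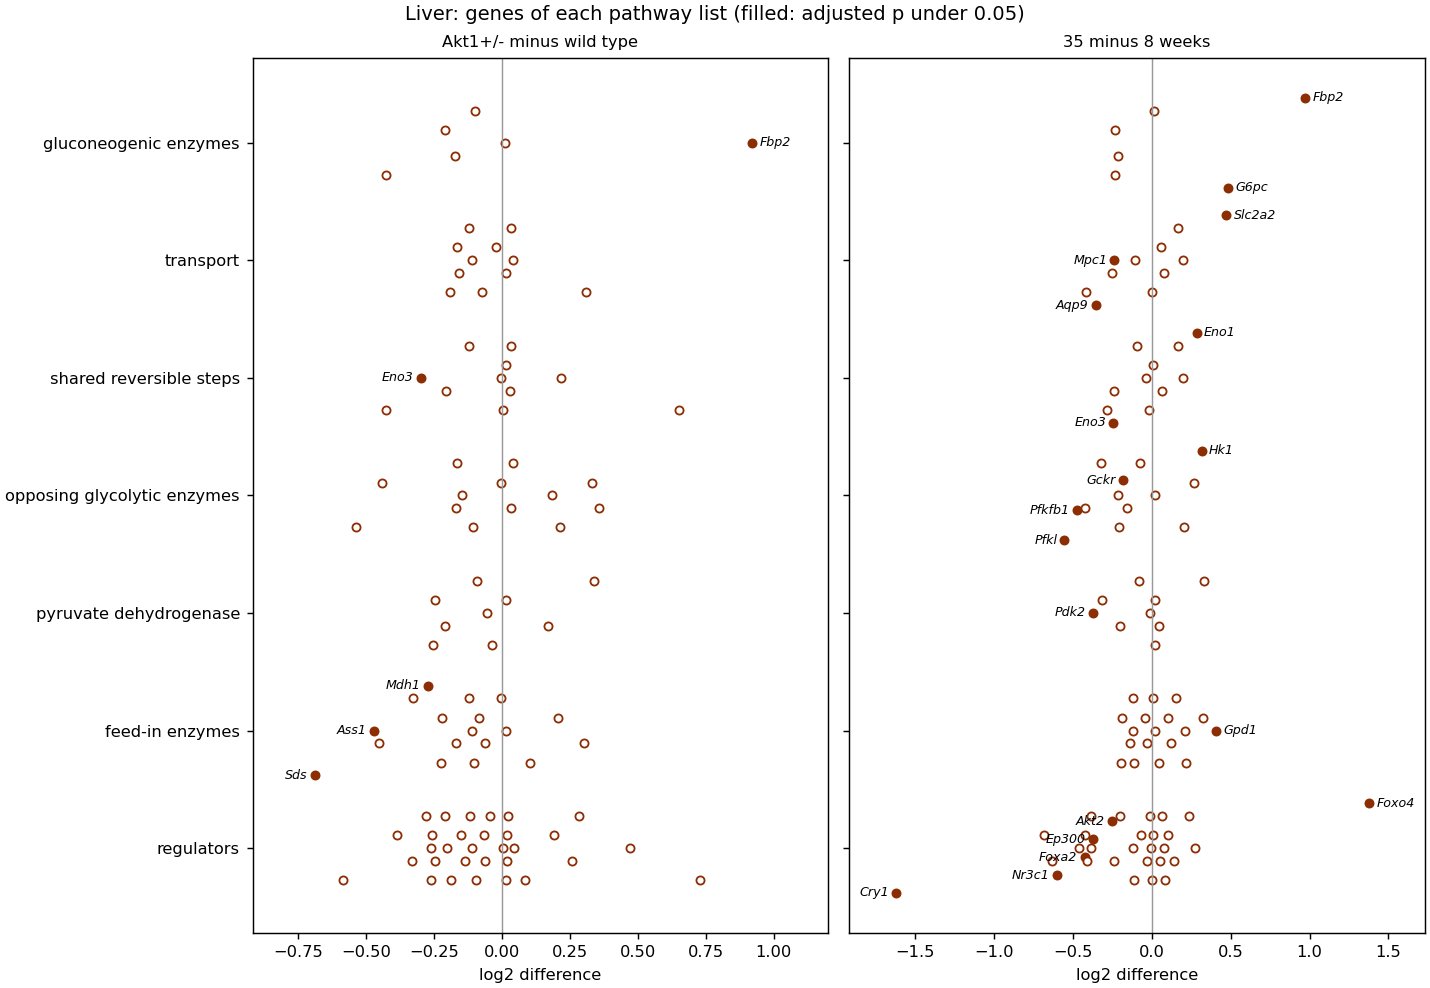
Log2 differences of genes of the pathway lists in liver, with Akt1+/- minus wild type on the left and 35 minus 8 weeks on the right; filled symbols, all named, have an adjusted p below 0.05. On the left the called genes are Fbp2 at 0.92 and 4 genes at −0.27 to −0.69.

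In muscle no list had a member called for genotype. With age, 15 of the 90 list genes tested were called, against 31.3% of all genes. These held 4 of 12 enzymes of the shared steps. Eno3, the muscle enolase, was higher (0.43 ± 0.08, adjusted p = 0.00191), as was Aldoa (0.21 ± 0.07, but 0.00 after normexp and quantile normalization, and lost in 8 of 14 fits without 1 array). Eno1 (−0.68 ± 0.07, adjusted p = 3.85e-05) and Pgk1 (−0.24 ± 0.05) were lower. Of the opposing enzymes Pfkm was higher (0.20 ± 0.05, but 0.04 after normexp and quantile normalization and not called there, with median scaling or in the 42-array fit) and Pkm lower (−0.20 ± 0.07, lost in 7 of 14 such fits and 3 of 11 settings), 2 of 13. G6pc3, the widely expressed glucose-6-phosphatase, was higher (0.19 ± 0.07, lost in 12 of 14 fits and 4 of 11 settings), 1 of 11 carriers and transport genes. Ldhb, a lactate dehydrogenase, was higher (0.54 ± 0.15, but 0.36 and not called after normexp and quantile normalization), 1 of 12, and Pdha1, of pyruvate dehydrogenase, lower (−0.25 ± 0.09, lost in 10 of 14 fits and 4 of 11 settings), 1 of 9. All 4 of 27 regulators called were higher, among them the coactivator Ppargc1b (0.80 ± 0.18) and Sirt1, a deacetylase (0.50 ± 0.07).

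In fat, 2 of the 95 list genes tested were called for the interaction, against 1.64% of all genes. Pdk1, an inhibitor kinase of pyruvate dehydrogenase, read 1.51, 1.69 and 1.52 in wild-type fat, against 0.69, 0.64 and 0.31 in Akt1+/- fat at 8 weeks, and 0.58 to 0.87 against 0.61 to 1.09 at 35 weeks. Only the wild-type fat at 8 weeks stood above the rest (interaction 1.24 ± 0.19, adjusted p = 0.0102, kept without each of 14 arrays). Gckr showed the same order at a low level, at −2.44, −2.46 and −2.89 against −3.98, −3.86 and −4.42 at 8 weeks (interaction 1.56 ± 0.30, adjusted p = 0.0294, lost in 6 of 14 fits without 1 array and 2 of 10 settings). At 35 weeks the wild-type and the Akt1+/- fat lay on different slides and scan days, which cannot be told apart from genotype at that age. Both calls held with slides as a random block (adjusted p = 0.00670 and 0.0202). The leukocyte and red blood cell sums were apart at 8 weeks, as given beside Pck2. At 35 weeks the white adipocyte sums (10.21 to 10.50 in Akt1+/- against 10.63 to 10.84 in wild-type fat) and the kidney proximal tubule sums (−3.44 to −3.00 against −4.26 to −3.75) were apart, and the part of all of these was not tested. With age, 7 of the 95 were called, against 19.3% of all genes. Pdha1 (−0.35 ± 0.10, lost in 7 of 14 fits and 2 of 11 settings) and Dlat (−0.41 ± 0.11, lost in 2 fits, and −0.11 and not called over all its probes), both of pyruvate dehydrogenase, were lower, 2 of 9. Got1, the cytosolic aspartate aminotransferase (0.67 ± 0.21, lost in 10 of 14 fits and 6 of 11 settings), and Ass1 (0.59 ± 0.17, lost in 7 fits and 1 setting) led the 3 of 17 feed-in enzymes that were higher, and Nr3c1 (−0.51 ± 0.09) and Cry1 (−0.87 ± 0.18, not called over all its probes) were the 2 of 28 regulators that were lower.

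Likeness of pattern is given as a description over the means of the 12 groups, which share tissues and arrays. G6pc, Fbp1 and Tat correlated with each other at r = 0.992 to 0.996. The genes nearest to Fbp1 were Rgn, Itih3 and Hpx (r = 0.999), to G6pc Ugt2b35, Tdo2 and Dnajc22 (0.998), and to Tat Atf5, Gulo and Tmem183a (0.999). Nearest to Fbp2 was Gpd2 (0.994), with the array entries NAP114978-1 and NAP029260-1 after it. LOC670046, Cntln and Slc2a13 were nearest to Pck2 (0.993 to 0.992), and H2-Q1, Lmf2 and C3 to Pcx (0.990 to 0.989). The tissue differences make up most of these values.

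Over the 14 liver arrays alone the members were less alike. G6pc and Tat had r = −0.228, Fbp1 and Tat 0.604, Pcx and Tat 0.568, and Fbp2 ran against Tat (−0.793) and Pcx (−0.633). The liver genes most like Fbp2 were Impa2, Pkp1 and Trpv2 (0.948 to 0.946). Those for G6pc were BC085283, 9430040K09Rik and 2210016L21Rik (0.901 to 0.887), for Pcx Zfp444, Kmt2d and Serpina3k (0.937 to 0.894), and for Pck2 Klhdc10, Adgrl1 and Prkd2 (0.921 to 0.879). Tat was nearest to TC1574886, Camsap1 and Rnf169 (0.940 to 0.933), and Fbp1 to Eef1b2, Tmsb15l and Cth (0.827 to 0.818).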

How the data were processed

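RNA of 42 tissue samples was labelled with Cy3 and hybridised to Agilent whole mouse genome arrays. The deposited scanner files hold intensity values that the authors extracted with Agilent Feature Extraction (9.5.3.1 per the file headers, 9.1 per the labels). Their own log2 values, deposited for each array, served as an alternative. From the background-subtracted processed intensity, the log2 level relative to each array's 75th percentile was computed. Control spots and outlier-flagged probes were left out. Of 41174 probes, 24375 were named by accession, 6301 by symbol, 2426 by an older symbol and 8072 kept the array's name. Where a gene had several probes 1 was used, with their mean as an alternative. Coordinates of probes are mm8 and those of promoters GRCm38.p6, and neither was converted.

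Each tissue was fitted with limma (3.58.1, R 4.3.3) for genotype, age and their interaction, with all 42 arrays for tissue differences, and p values were adjusted by Benjamini-Hochberg. The methods' two-way test was an alternative, read after adjustment at 0.05 and at the methods' unadjusted p below 0.01. Single values were compared with exact permutation tests and correlations with 100000 permutations (scipy 1.17.1). On simulated data with 200 genes changed by 1 log2 unit, the share recovered was 81.5% (liver), 88% (muscle) and 83.5% (fat). The simulated arrays held no slide effect, and every averaged genotype difference of a member was smaller than 1 unit. These shares therefore do not give the chance of a call for the members. The number of arrays limits the precision.

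Members and lists were chosen with earlier results of these data known. Named genes were all members, Akt1, and, per pathway list and tissue, at most the 3 largest called genotype or interaction differences and the 2 largest called age differences in each direction, and the 3 genes most like each member. One gene counted in the lists is not reported here.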

Additional observations from a re-analysis of the deposited data

Results flagged for a closer look

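Each member's 4 arrays per tissue and genotype at 35 weeks, 36 groups in all, were searched for 1 array far from the others. Chance gives this in about 1 in 20 groups, and 4 groups had one. Fbp1 was at −2.02 in replicate 3 of the wild-type muscles at 35 weeks, against −5.04 to −4.82 in the other arrays of the group. Fbp2 was at −7.71 in replicate 3 of the wild-type fat at 35 weeks, against −6.37 to −6.26, all below background. Pck2 was at −0.17 in replicate 1 of the wild-type livers at 35 weeks, against −0.41 to −0.38. Pcx was at 6.37 in replicate 2 of the wild-type livers at 35 weeks, against 6.65 to 6.66.

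The age difference of Fbp2 differed between liver and muscle by 1.64 (limma, adjusted p = 0.00891) and that of Pcx by −0.57 (adjusted p = 0.0341). In fat, the genotype difference changed with age by 1.56 for Gckr (adjusted p = 0.0294) and by 1.24 for Pdk1 (adjusted p = 0.0102).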

How the results depend on the processing

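Of the log2 differences recomputed under other settings, 1284 kept direction and side of the threshold, 108 lost the call, 13 gained it, 19 moved and 1 reversed, and the cause was not tested. The reversal was Pcx in liver against fat, −0.50 with normexp and quantile normalization. In liver, the 1 member called for genotype became 3 with median scaling, and 0 with normexp and quantile normalization, 0 when probes had to be above background on all arrays (Fbp2 was then not tested) and 0 in 1 fit over all 42 arrays. The 2 called for age became 4 with median scaling, 1 with probes above background on all arrays and 1 in the 42-array fit, and the interaction gained 1 (Pck2) in the 42-array fit. In muscle the 2 called for age became 1 (Pck2) in the 42-array fit, and 3, with Pcx, with slides as a random block. Age differences between liver and muscle fell from 2 to 1 with normexp, with probes above background on all arrays and with slides as a random block. Without a filter on dim probes 1 member (Fbp2) was called for genotype and 1 for age between liver and fat. Median scaling raised the by-age differences with exact permutation p below 0.05 from 1 to 3.

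Leaving out each array gave 1 to 2 members for genotype and for age in liver, 2 to 3 for age in muscle, 1 to 2 for the age difference between liver and muscle, 3 to 4 for muscle against fat and 0 to 1 for the age difference between muscle and fat, with no change elsewhere. At an unadjusted p below 0.01, the methods' two-way test called 1 member for age in liver (Fbp2, 29.0% of genes). It called 2 for the interaction there (Fbp2 and Pck2, 4.6%) and 1 for genotype in muscle (Pck2, 5.6%). For genotype in liver (Fbp2) and for age in muscle (Fbp2 and Pck2) it called the same members as limma. It called no member for the interaction in muscle or for any comparison in fat. The labels pair no samples. Same-numbered arrays correlated at 0.105 to 0.526 at 35 weeks and at −0.195 to 0.073 at 8 weeks. At 35 weeks, but not at 8 weeks, they also held the same position on their slides, and the part of position was not tested. With a replicate block, age in fat called 1 member (Tat, −0.67, adjusted p = 0.0486) in place of 0, age in liver and in muscle called 3 each (Pcx added, adjusted p = 0.0492 and 0.0452) in place of 2, and genotype in muscle called 248 genes in place of 0. Genes called for genotype ranged from 245 (slides as a random block) to 3135 (median scaling) around 1100 in liver, and from 10 to 596 around 151 in fat. Leaving out 1 array gave 271 to 1278 in liver and 29 to 489 in fat. For the interaction it gave 28 to 129 in liver, around 99, and 82 to 895 in fat, around 302. The shares of all genes set beside the members for these comparisons thus depended on single arrays.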
